A study of Homo sapiens with 12 samples.

Results

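The genes described here are 10 human splicing factor genes: PRPF3, PRPF4, PRPF6, PRPF8, PRPF31, PRPF38A, PRPF38B, PRPF39, PRPF4B and SMNDC1. They were taken by symbol from count tables of 23368 gene symbols, as PRPF-named factors and SMNDC1 that rose early with a PRMT5 inhibitor, so the 24 h difference is what chose them. The cells were SUDHL6, an established human lymphoma line (diffuse large B-cell, germinal centre type). They received 200 nM GSK591, which inhibits the arginine methyltransferase PRMT5, or vehicle (0.01% DMSO) for 24 h or 96 h, with 3 samples in each of the 4 groups. All samples came from this 1 line, so nothing here speaks to other lymphomas. Poly(A) RNA was sequenced, and the values are counts of reads per gene. The labels do not say whether the 3 samples of a group were separate cultures, so a p-value measures their spread, which may be technical only.

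Splicing is carried out by the spliceosome, which assembles on each intron from small nuclear ribonucleoproteins (snRNPs) named U1, U2, U4, U5 and U6. U4, U5 and U6 arrive together as the tri-snRNP, and the PRPF proteins, named after yeast pre-mRNA processing mutants, mostly build or activate that particle. PRMT5 places symmetric dimethyl marks on arginines of the Sm proteins that form the core of the snRNPs, and the Tudor domain of SMNDC1 (also called SPF30) is known to bind such marks. Inherited mutations of several of the tri-snRNP factors, among them PRPF3, PRPF8 and PRPF31, cause retinal degeneration.

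Libraries held 49.9 to 57.9 M counts (M, mega) at 24 h and 48.5 to 64.4 M at 96 h, apart from vehicle replicate 1 at 96 h, which held 548 M. At 96 h the libraries numbered 2 stood apart in both groups. A chi-square of counts over genes, per degree of freedom, gave 39.8 and 31.6 for GSK591 replicate 2 against the others and 9.12 between those others, and 24.6 and 16.6 for vehicle replicate 2 against the others and 2.97 between those others, beside 2.2 to 3.27 for the pairs of 24 h. Without both, 8201 genes were called at 96 h, against 5437 with all 6 libraries. The 10 genes had between 2360 and 432745 counts in a library, and all 10 passed the filter on low counts at both times. B-cell markers were present in all libraries, led by MS4A1 (CD20). Summed over 8 genes they gave 7660 to 7690 counts per M counts of the library (CPM) with GSK591 and 7590 to 7680 with vehicle at 24 h, and 8100 to 8980 with GSK591 and 8020 to 8510 with vehicle at 96 h. Summed over 17 genes, markers of T, NK, myeloid, erythroid, platelet, stromal, endothelial, epithelial and plasma cells gave 0.902 to 1.27 CPM with GSK591 and 1.31 to 1.58 with vehicle at 24 h. At 96 h they gave 2.07 to 3.33 CPM with GSK591 and 1.10 to 1.87 with vehicle, and 3 of the 17 with GSK591 and 4 with vehicle had no count in any library. The part of these markers in the results was not tested. PRMT5 itself stood at 131 ± 1.48 CPM with GSK591 and 131 ± 5.19 with vehicle at 24 h, and at 85.0 ± 1.65 with GSK591 and 89.6 ± 4.96 with vehicle at 96 h (SD, n = 3). It was not called at either time in edgeR's quasi-likelihood test (adjusted p = 0.984 and 0.373), where "called" means an adjusted p under 0.05. CPM are relative to all counts of a library, and in bulk RNA fewer cells of a kind and less RNA per cell cannot be told apart.

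After 24 h the members fell into 2 sets. PRPF3, PRPF38B, PRPF39, PRPF4B and SMNDC1 stood well above vehicle, with log2 fold changes of GSK591 over vehicle from 0.24 to 0.42, while the other 5 lay between -0.05 and 0.10. Since the members were chosen on this difference, the 24 h values are a description. PRPF3, a U4/U6 snRNP protein, had 99.9, 102 and 96.5 CPM with GSK591, against 75.3, 72.9 and 73.9 CPM with vehicle, a log2 fold change of 0.42 ± 0.03 (SE). SMNDC1, which is found with U2 and helps to bring the tri-snRNP to the intron, had 72.5, 70.3 and 69.4 CPM with GSK591 and 56.6, 54.8 and 55.2 CPM with vehicle (0.35 ± 0.03). In both genes every treated library was above every vehicle library. For PRPF38B the values were 183, 184 and 181 CPM with GSK591 and 146, 143 and 148 CPM with vehicle (0.33 ± 0.02). The kinase gene PRPF4B, whose product phosphorylates tri-snRNP proteins, had 468, 458 and 466 CPM with GSK591 and 385, 373 and 392 CPM with vehicle (0.27 ± 0.02). PRPF39, the relative of a U1 snRNP protein of yeast, had 74.6, 78.1 and 77.9 CPM with GSK591 and 65.3, 66.0 and 64.7 CPM with vehicle (0.24 ± 0.03). These 3 also showed no overlap between the groups.

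The label of an early rise did not hold for the whole family. PRPF6, which bridges U5 with U4/U6, averaged 144 ± 3.88 CPM with GSK591 and 149 ± 3.78 with vehicle at 24 h, and PRPF38A averaged 90.2 ± 0.77 CPM with GSK591 and 91.9 ± 1.57 with vehicle. PRPF31 averaged 87.3 ± 3.02 CPM with GSK591 and 84.6 ± 1.56 with vehicle (SD, n = 3). In these 3 genes the groups overlapped. PRPF4 (86.1 ± 2.22 CPM with GSK591 and 80.3 ± 0.29 with vehicle) and PRPF8 (1033 ± 9.34 and 991 ± 8.34 in the same order) were apart by log2 differences of 0.10 and 0.06, without overlap. Since the choice of members rests on this contrast, their calls at 24 h are not counted. The test at 24 h covered 13173 genes, of which 7.44% came out higher and 31.9% had groups that did not overlap. Scaled by library size only, 563 genes were called higher and 1220 lower at 24 h, against 980 and 960 with TMM scaling. All 10 log2 fold changes kept their sign under the 14 alternatives run at 24 h.

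**Figure D1:**
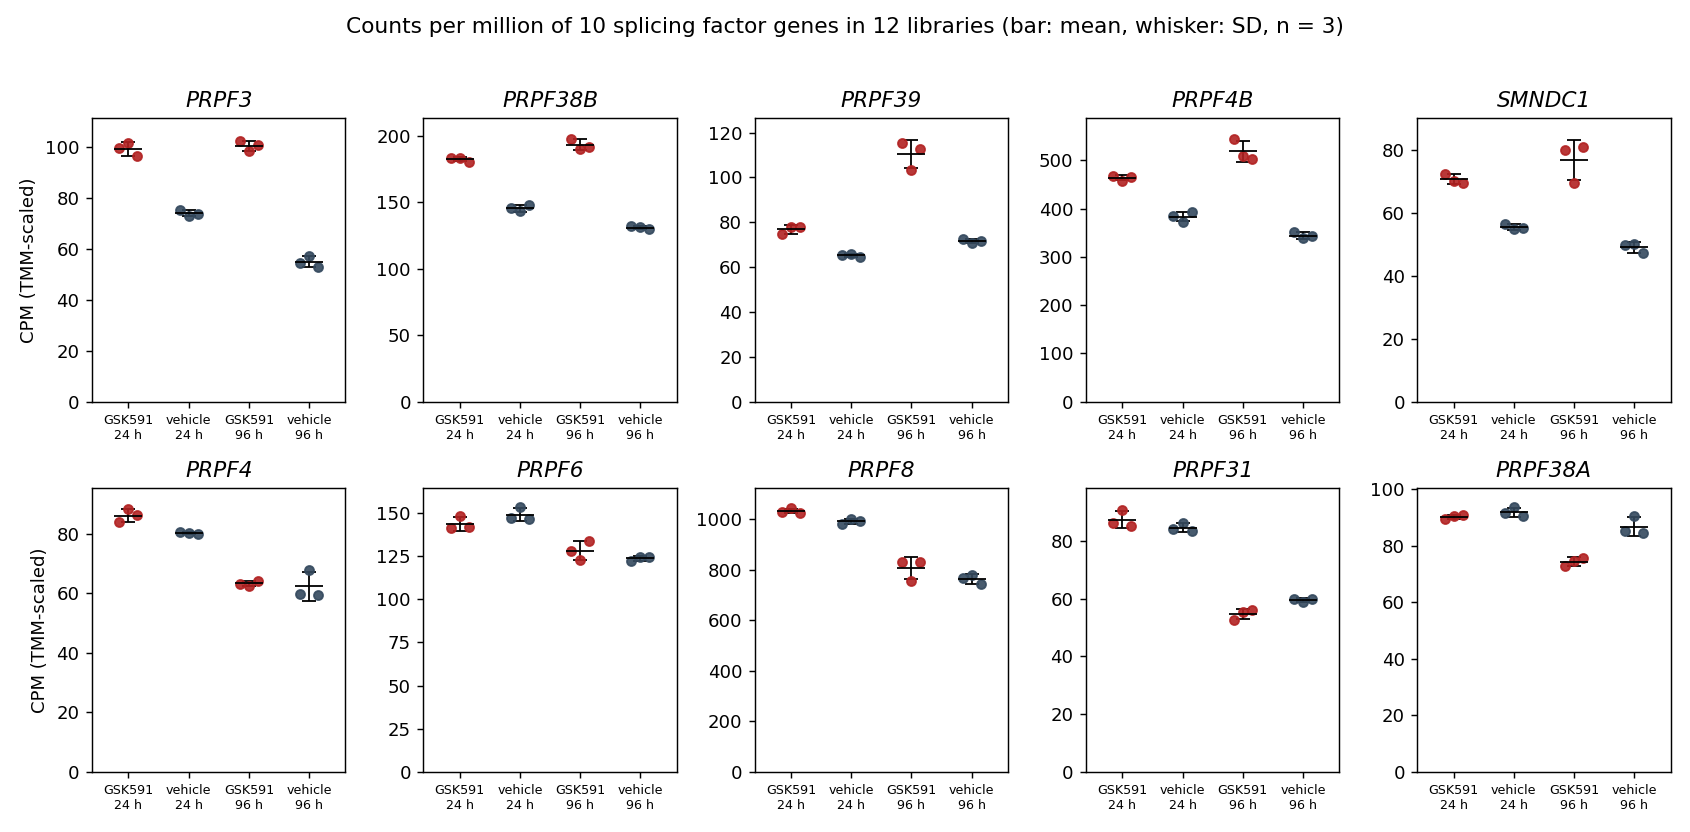
CPM of the 10 genes in each of 12 libraries (points), with the mean and SD of 3 libraries (bar and whisker), GSK591 in red and vehicle in dark blue. In the upper row every treated point lies above every vehicle point of its time. In the lower row the groups of a time differ less for their level. There the treated points of PRPF4 and PRPF8 lie above the vehicle points at 24 h. Those of PRPF38A and PRPF31 lie below them at 96 h, and the other groups overlap.

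The rule names the early rise and no value of 96 h, although the members were proposed with results of both times known, and at 96 h the same 5 genes rose, 1 fell and 4 were not called, beside 40.2% of all genes called in either direction. PRPF3 had 102.5, 98.4 and 101 CPM with GSK591, against 54.6, 57.4 and 53.1 CPM with vehicle. This was a 1.85-fold rise (log2 fold change 0.89 ± 0.05 SE, adjusted p = 0.000102 in edgeR's quasi-likelihood test with Benjamini-Hochberg adjustment over 13514 genes), and 3.8% of the genes tested had a higher value. The treated libraries lay at nearly the same level and far from the vehicle libraries. SMNDC1 had 80.0, 69.6 and 81.0 CPM with GSK591 and 49.7, 50.1 and 47.2 CPM with vehicle (log2 fold change 0.66 ± 0.06, adjusted p = 0.000416). GSK591 replicate 2 was the lowest of the treated libraries here, yet above all vehicle libraries. PRPF39 had 115, 103.5 and 113 CPM with GSK591 and 72.6, 70.9 and 71.7 CPM with vehicle (0.64 ± 0.05, adjusted p = 0.000308). In 4 of the 5 genes, all but PRPF4B, that same treated library was the lowest.

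PRPF4B had 544, 510 and 503 CPM with GSK591 at 96 h, against 351, 338 and 343 CPM with vehicle (log2 fold change 0.61 ± 0.05, adjusted p = 0.000382 in edgeR's test). PRPF38B, a relative of the B-complex factor PRPF38A, had 198, 190 and 192 CPM with GSK591 and 132, 131 and 130 CPM with vehicle (0.57 ± 0.05, adjusted p = 0.000305). The spread inside each group was small beside the distance between them. The 5 rises of the 10 members stand beside 20.7% of all genes called higher at 96 h, and 8.5% of genes or fewer had a log2 fold change above that of any of the 5. All 5 stayed called under the 15 alternatives run at 96 h, also without any single library and without both libraries numbered 2. In the authors' deposited table for 96 h the same genes had log2 fold changes of 0.89 for PRPF3, 0.66 for SMNDC1, 0.64 for PRPF39, 0.61 for PRPF4B and 0.58 for PRPF38B, and PRPF3 had the 8th smallest p of 23368 genes.

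**Figure D2:**
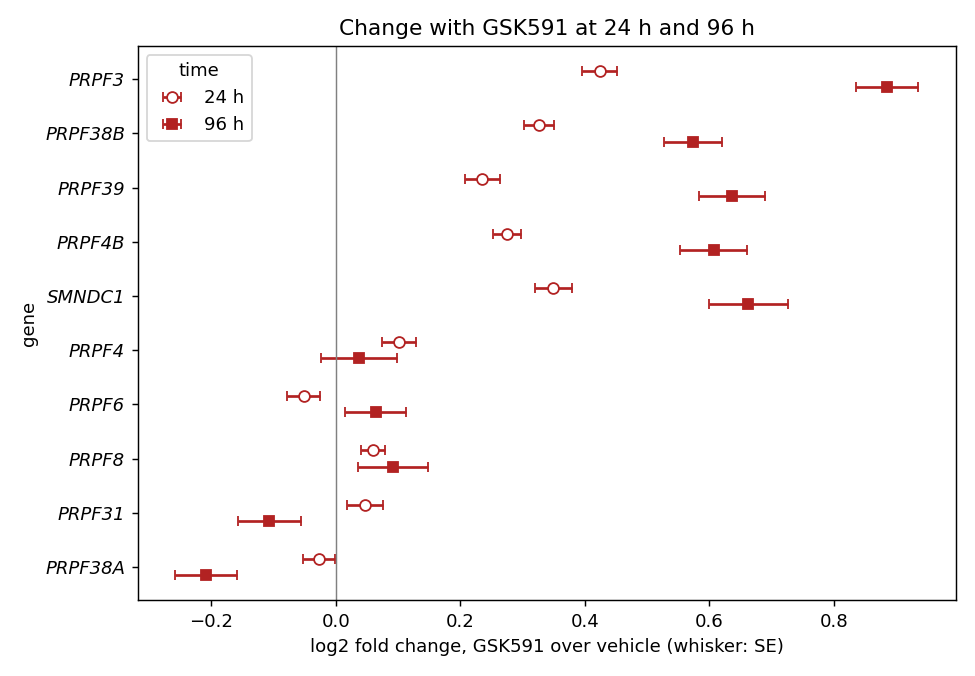
Log2 fold change of GSK591 over vehicle for the 10 genes (points) with its standard error (whiskers), at 24 h (open circles) and 96 h (filled squares). Values at 96 h run from -0.21 for PRPF38A to 0.89 for PRPF3, and the upper 5 genes lie to the right of 0 at both times.

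The core scaffold PRPF8 and the tri-snRNP factors PRPF6, PRPF4 and PRPF31 were not called at 96 h. PRPF8, the large U5 protein at the heart of the catalytic centre, had 829, 755 and 833 CPM with GSK591 and 768, 780 and 743 CPM with vehicle (log2 fold change 0.09 ± 0.06, adjusted p = 0.218 in edgeR's test). GSK591 replicate 2 lay among the vehicle values. PRPF6 averaged 128 ± 5.53 CPM with GSK591 and 124 ± 1.51 with vehicle (SD, n = 3; 0.06 ± 0.05, adjusted p = 0.317). PRPF4, which binds PRPF3 in the U4/U6 particle, averaged 63.3 ± 0.88 CPM with GSK591 and 62.3 ± 4.78 with vehicle (SD, n = 3; 0.04 ± 0.06, adjusted p = 0.65), and its sign turned without vehicle replicate 3 (-0.0023). Without both libraries numbered 2, PRPF4 and PRPF8 were called higher, at 0.10 and 0.14 (adjusted p = 0.0417 and 0.0144).

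PRPF38A was the member that fell at 96 h. It had 72.7, 74.6 and 75.8 CPM with GSK591, against 85.1, 90.7 and 84.7 CPM with vehicle (log2 fold change -0.21 ± 0.05, adjusted p = 0.0113 in edgeR's test), beside 19.6% of genes called lower. All treated libraries were below all vehicle libraries, and the call held under the 15 alternatives, with adjusted p between 0.000265 and 0.0428. The gene overlaps ORC1, which is described with the neighbours, and reads of the overlap cannot be told apart. PRPF31, a U4-binding protein of the tri-snRNP, had 52.6, 55.3 and 56.2 CPM with GSK591 and 60.0, 58.7 and 59.8 CPM with vehicle (-0.11 ± 0.05, adjusted p = 0.121). Its groups did not overlap either, but it was called lower only without GSK591 replicate 2 (adjusted p = 0.0428), without both libraries numbered 2 (0.0135) and in a joint fit of both times (0.0192). In all, 7 of 10 members had groups that did not overlap at 96 h, beside 54.6% of all genes tested.

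Partners and paralogs differed in these values, and their ratio can be read from counts within a library with no scaling at all. These ratios were chosen after the values were seen and are given with no test. PRPF3 and PRPF4 form 1 subcomplex of U4/U6, and their transcript counts had a PRPF3 to PRPF4 ratio of 1.62, 1.58 and 1.57 with GSK591 at 96 h, against 0.911, 0.846 and 0.895 with vehicle. At 24 h it was 1.19, 1.15 and 1.12 with GSK591 and 0.935, 0.909 and 0.924 with vehicle. For the paralogs, the PRPF38B to PRPF38A ratio was 2.72, 2.55 and 2.53 with GSK591 at 96 h, against 1.55, 1.45 and 1.53 with vehicle. At 24 h it was 2.05, 2.03 and 1.99 with GSK591 and 1.59, 1.53 and 1.63 with vehicle. In both pairs all treated libraries lay above all vehicle libraries at each time. A ratio of counts shows unequal change of the pair, not the level of either protein.

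**Figure D3:**
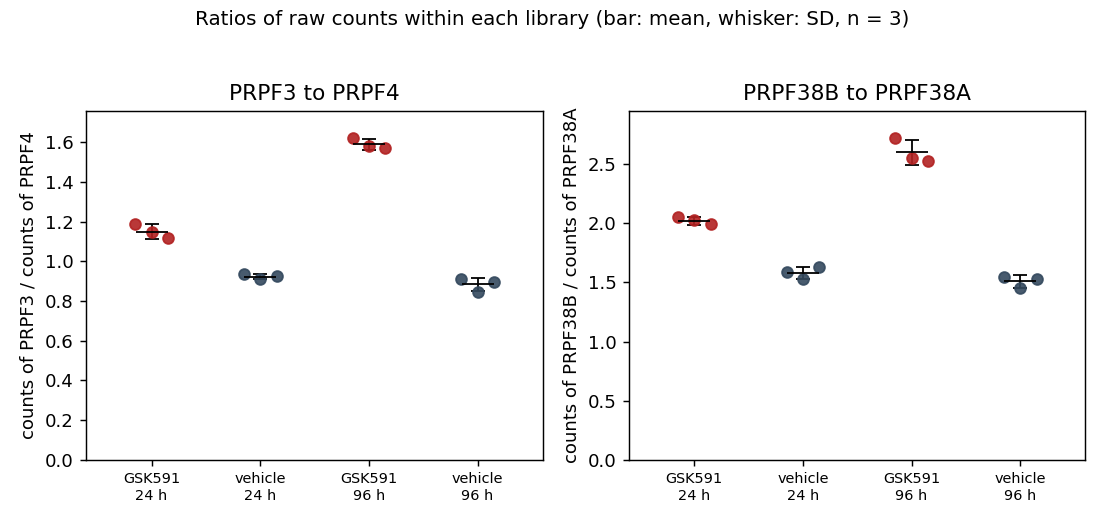
Ratio of raw counts of PRPF3 to PRPF4 (left) and of PRPF38B to PRPF38A (right) in each library (points), with the mean and SD of 3 libraries, GSK591 in red and vehicle in dark blue. Vehicle libraries lie near the same ratio at both times, with means of 0.922 at 24 h and 0.884 at 96 h on the left, and the treated libraries lie above them.

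Promoters of 8 of the 10 genes, all but PRPF3 and PRPF39, were matched in the RefSeq table of 300-base windows (build GRCh38.p14, from 250 bases before the annotated start to 50 after it). The windows of 3 genes that stood higher at both times are shown beside that of PRPF38A, which fell, so that genes of either direction can be compared. Each is written 5′ to 3′ on the strand of its gene, with PRPF38B at chr1:108692060-108692359 (plus strand), PRPF4B at chr6:4021050-4021349 (plus), SMNDC1 at chr10:110304871-110305170 (minus) and PRPF38A at chr1:52404352-52404651 (plus), and capitals mark matches to the motifs named after them.
PRPF38B: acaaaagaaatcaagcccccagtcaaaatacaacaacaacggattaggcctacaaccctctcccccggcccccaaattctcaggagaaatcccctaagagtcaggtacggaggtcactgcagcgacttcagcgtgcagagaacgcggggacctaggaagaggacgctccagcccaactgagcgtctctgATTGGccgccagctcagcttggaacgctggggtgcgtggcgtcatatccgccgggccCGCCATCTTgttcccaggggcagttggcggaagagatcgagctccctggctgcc
PRPF4B: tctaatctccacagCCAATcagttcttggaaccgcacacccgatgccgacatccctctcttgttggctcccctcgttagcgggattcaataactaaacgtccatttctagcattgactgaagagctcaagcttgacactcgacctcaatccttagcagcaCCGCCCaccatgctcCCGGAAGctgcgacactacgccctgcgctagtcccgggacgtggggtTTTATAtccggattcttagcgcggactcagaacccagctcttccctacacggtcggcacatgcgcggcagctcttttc
SMNDC1: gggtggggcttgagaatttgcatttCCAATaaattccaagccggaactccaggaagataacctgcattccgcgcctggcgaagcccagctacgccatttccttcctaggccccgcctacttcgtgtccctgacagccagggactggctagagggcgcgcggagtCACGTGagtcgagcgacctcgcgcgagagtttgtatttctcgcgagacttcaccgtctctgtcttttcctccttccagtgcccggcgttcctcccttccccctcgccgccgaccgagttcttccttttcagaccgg
PRPF38A: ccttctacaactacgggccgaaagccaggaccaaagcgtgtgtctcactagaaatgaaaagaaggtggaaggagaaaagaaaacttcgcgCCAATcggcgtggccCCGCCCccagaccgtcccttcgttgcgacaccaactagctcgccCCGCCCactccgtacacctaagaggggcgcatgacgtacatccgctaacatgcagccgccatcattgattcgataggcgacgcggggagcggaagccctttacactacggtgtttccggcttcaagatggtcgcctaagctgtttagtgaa

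The motifs searched, on both strands, were the CCAAT box (CCAAT), the GC box (GGGCGG), an ETS core (CCGGAAG), an E-box (CACGTG), a YY1 site (AAGATGGCG), an NRF1 site, a CREB site (TGACGTCA) and a TATA box (TATAAA). None of the marked matches in these 4 windows overlap. CCAAT was in 6 of the 8 windows, those of PRPF8, PRPF31, PRPF38A, PRPF38B, PRPF4B and SMNDC1, and in 34.6% of 35116 windows in the whole table. It thus stood before genes that rose, fell and were not called at 96 h. PRPF38B had its CCAAT match 61 bases before the start and a YY1 match that spans the start, a motif found in 1.75% of all windows. SMNDC1 had an E-box 86 bases before the start (7.26% of all windows), and PRPF4B a TATA match 28 bases before it (11.5%) and an ETS core at 75 bases (10.3%). A GC box was in 4 of the 8 windows and in 45% of all, and no member window held the CREB or the NRF1 site. The G and C content of the 8 windows ran from 55.3% to 66.3%, around a median of 58.7% for all windows. A match is a string of letters, and no binding was measured.

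Levels per length placed PRPF8 first among the members in every group. Divided by the length of all its exons in GENCODE release 29, PRPF8 reached 71.0 ± 3.87 CPM per kilobase with GSK591 and 67.2 ± 1.68 with vehicle at 96 h (SD, n = 3). The next 2 were PRPF4B, with 66.1 ± 2.77 CPM per kilobase with GSK591 and 43.8 ± 0.85 with vehicle, and PRPF6, with 42.1 ± 1.82 and 40.6 ± 0.50 in the same order. With GSK591 the mean ± SD ranges of PRPF8 and PRPF4B overlapped, and with vehicle they were well apart. SMNDC1 was the lowest with vehicle at 9.05 ± 0.30 CPM per kilobase, below PRPF3 at 10.2 ± 0.41. With GSK591 the lowest was PRPF38A at 13.1 ± 0.28, next to SMNDC1 at 14.2 ± 1.16, and PRPF3 stood at 18.7 ± 0.38. These lengths count every annotated exon, so they are longer than most single transcripts.

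Levels also differed between the times, which were deposited as separate tables, so time and table cannot be told apart. With vehicle, 9 of the 10 members had a lower mean CPM at 96 h than at 24 h, all but PRPF39. PRPF3 averaged 55.0 ± 2.20 CPM at 96 h and 74.1 ± 1.21 at 24 h with vehicle, while with GSK591 it averaged 101 ± 2.06 and 99.3 ± 2.63 (SD, n = 3). The treated level of PRPF3 was thus close at both times, and the vehicle level was not. PRPF31 was lower at 96 h in both treatments, at 54.7 ± 1.88 CPM with GSK591 and 59.5 ± 0.69 with vehicle, against 87.3 ± 3.02 and 84.6 ± 1.56 at 24 h. For PRPF39 the pattern was another one, with vehicle at 71.7 ± 0.83 CPM at 96 h and 65.3 ± 0.64 at 24 h, and GSK591 at 110.5 ± 6.16 and 76.9 ± 1.95.

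Across all 12 libraries, 4 of the genes that rose had nearly the same profile. Pearson's r of log2 CPM between PRPF3, PRPF38B, PRPF4B and SMNDC1 was 0.944 to 0.988, a description over libraries that share groups. The 12 include the 24 h libraries, whose difference chose the members, so likeness among those that rose may be partly built in. Among 8964 other genes, each with a mean log2 CPM of 3 or more, the gene most like PRPF3 was PRPF38B (r = 0.971), followed by the deubiquitinase gene USP16 (0.969) and TAF2, a subunit of the general transcription factor TFIID (0.968). The 2 genes most like PRPF38B were PRPF4B (0.988) and SMNDC1 (0.983), and next came TUBGCP4, of the gamma-tubulin ring complex (0.982). PRPF38B was also the first for SMNDC1 (0.983) and the second for PRPF4B (0.988), after the peptidase gene TPP2 (0.992). PRPF39 followed another course, with r of 0.612 to 0.812 to those 4, and its closest genes were STX4, a syntaxin, CEPT1, a phospholipid synthesis enzyme, and PAPD4, a poly(A) polymerase (0.988 to 0.993). PRPF38A and PRPF39 ran against each other, with r of -0.927. The 5 members that did not rise at 96 h correlated among themselves at 0.618 to 0.969, and none of their 3 closest genes was a member. The first of these was ZNF259, a zinc finger gene, for PRPF4 (0.998), PGD, a pentose phosphate pathway enzyme, for PRPF38A (0.997), PRELID1 for PRPF31 (0.996), NOL11, a ribosome biogenesis factor, for PRPF8 (0.995) and TSC22D3, a glucocorticoid-induced gene, for PRPF6 (0.976).

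Several members share a start region or a 3′ end with another gene. No source used here gives the strand setting of the counting, so reads from overlapping genes cannot be told apart. PRPF38A starts head to head with ORC1, a subunit of the origin recognition complex, and in the RefSeq table the 2 overlap. ORC1 also fell at 96 h, with 35.5 CPM with GSK591 and 57.3 with vehicle (log2 fold change -0.67 ± 0.11, adjusted p = 0.00293 in edgeR's test). PRPF31 starts 97 bases from TFPT, a subunit of the INO80 chromatin remodelling complex that is read in the other direction. TFPT rose at 96 h, with 32.3 CPM with GSK591 and 26.4 with vehicle (0.30 ± 0.07, adjusted p = 0.013, and 0.0547 without GSK591 replicate 3), whereas PRPF31 was at -0.11. Whether the 2 genes of that pair differ was not tested.

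PRPF4 starts 86 bases from CDC26, a subunit of the anaphase-promoting complex, which had 13.56 CPM with GSK591 and 14.95 with vehicle at 96 h and was not called (log2 fold change -0.13 ± 0.08, adjusted p = 0.239 in edgeR's test). SAMD10, 988 bases head to head from PRPF6, was at -0.28 ± 0.09 (adjusted p = 0.0331), a call lost without any of the 3 vehicle libraries or GSK591 replicate 1 or 3 (adjusted p from 0.0797 to 0.112). FKBP3, a peptidyl-prolyl isomerase gene whose 3′ end overlaps that of PRPF39, was not called at 96 h (0.06 ± 0.05, adjusted p = 0.359), where PRPF39 rose. It was called lower at 24 h (-0.11 ± 0.03, adjusted p = 0.0166), but not without vehicle replicate 1 or GSK591 replicate 1 (0.0748 and 0.0973). On either side of PRPF3, MRPS21, a mitochondrial ribosomal protein gene, fell at 96 h (-0.37 ± 0.06, adjusted p = 0.00245) and RPRD2 was not called (-0.003 ± 0.06, adjusted p = 0.971). No measured neighbour of PRPF3 or PRPF39 was called higher at 96 h.

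**Figure D4:**
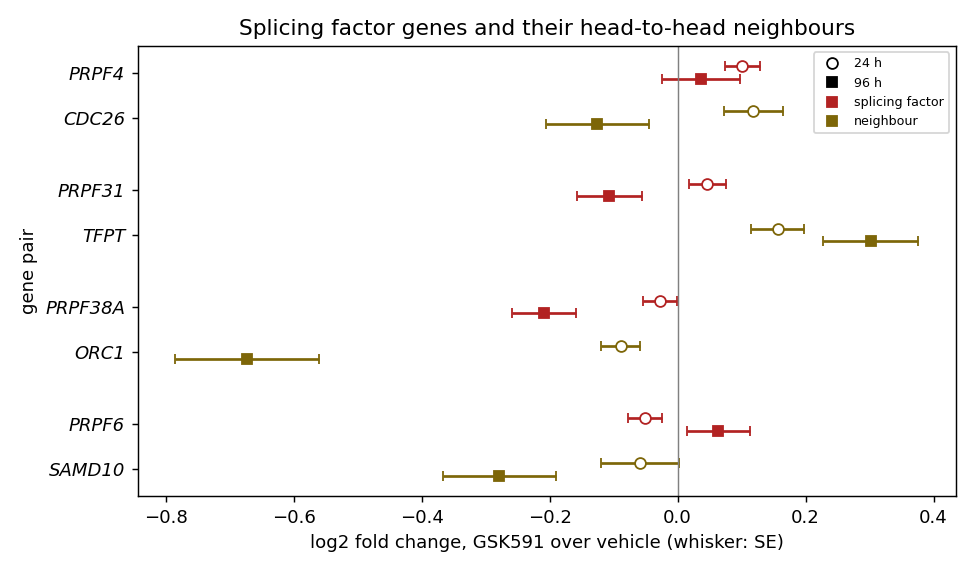
Log2 fold change of GSK591 over vehicle with its standard error for 4 members (red) and the genes that start head to head with them (brown), at 24 h (open circles) and 96 h (squares). At 96 h PRPF38A and ORC1 both lie left of 0, while PRPF31 lies left and TFPT right of it.

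The rest of the splicing machinery gives the frame for these values. In 7 lists of other spliceosome genes, 21 of 76 genes were called higher at 24 h and 0 lower, beside 7.44% of all genes called higher and 7.29% lower, and their median log2 fold change was 0.05, against 0.00 for all genes tested. When the 12 samples shared 1 estimate of the spread, 0 of the 76 were called at 24 h, beside 29 of all 13665 genes tested. At 96 h 16 of the 76 were called higher and 12 lower, 21.1% and 15.8%, beside 20.7% and 19.6% of all genes, with a median of -0.01. These counts changed when single libraries were left out, and so did those of all genes. The higher calls numbered 8 to 10 when vehicle replicate 2 or 3 or GSK591 replicate 1 or 3 was left out. Over all genes they then numbered 1794 to 2049, against 2792 with all 6 libraries. Without GSK591 replicate 2 they numbered 25 in the lists and 3656 over all genes. Without both libraries numbered 2 these counts were 31 and 4099. The lower calls numbered 4 to 6 when any library but GSK591 replicate 2 was left out. Over all genes the lower calls then numbered 1644 to 1949, against 2645 with all 6 libraries. The largest value of the 76 at 24 h was 0.32, beside 0.42 for PRPF3. PRPF3 was chosen on its rise at that time, so this order is a description only. At 96 h 1 gene, LUC7L, exceeded PRPF3. The other genes with a PRPF name gave 0 calls of 4 at 24 h. At 96 h PRPF19, the ubiquitin ligase of the PRP19 complex, was called lower (-0.17 ± 0.05, adjusted p = 0.0368). That call was lost without any of the vehicle libraries or without GSK591 replicate 1 (adjusted p from 0.0835 to 0.103).

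Among 13 other U4/U6 and tri-snRNP genes, 6 rose and 0 fell at 24 h, and 4 rose and 2 fell at 96 h. Of all genes tested, 14.7% were called in either direction at 24 h and 40.2% at 96 h. The helicase gene DDX23, whose product acts with the U5 particle, rose at 96 h to 272 ± 21.2 CPM with GSK591, against 175.5 ± 3.23 with vehicle (SD, n = 3; log2 fold change 0.65 ± 0.06, adjusted p = 0.000406 in edgeR's test), and had risen by 0.19 ± 0.02 at 24 h. SART1, a tri-snRNP protein, rose by 0.32 ± 0.05 at 96 h and by 0.20 ± 0.03 at 24 h. PPIH, the cyclophilin that binds PRPF4, rose by 0.32 ± 0.04 at 24 h, and at 96 h it stood at 0.29 ± 0.08, a call that was lost when vehicle replicate 1 or 3 or GSK591 replicate 3 was left out (adjusted p from 0.0778 to 0.0901). The U5 genes EFTUD2 and SNRNP40 fell at 96 h, by 0.23 ± 0.05 and by 0.29 ± 0.06. Their fellow U5 protein gene PRPF8 was not called.

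In the U1 particle list 5 of 9 genes rose at 24 h and 0 fell, and at 96 h 3 rose and 2 fell. LUC7L, a U1-associated protein, had 111 ± 6.45 CPM with GSK591 and 43.9 ± 2.82 with vehicle at 96 h (SD, n = 3; log2 fold change 1.35 ± 0.07, adjusted p = 0.000102 in edgeR's test). TIA1, an RNA-binding protein that stabilises U1 on weak sites, rose by 0.57 ± 0.06. SNRPA, the U1 A protein, fell by 0.46 ± 0.08, and SNRPC by 0.20 ± 0.06. Around U2, where SMNDC1 acts, 6 of 20 genes rose and 0 fell at 24 h, and 3 rose and 3 fell at 96 h. The counts of both lists stand beside 14.7% of all genes called in either direction at 24 h and 40.2% at 96 h. SF3B1, which holds the branch point, rose by 0.45 ± 0.06 and the helicase DDX46 by 0.32 ± 0.05 at 96 h, and SNRPA1, a U2 core protein, fell by 0.25 ± 0.05.

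Next came the lists nearest to PRPF38A and those of the later steps. Their counts stand beside 14.7% of all genes called in either direction at 24 h and 40.2% at 96 h. Of 6 B-complex genes, which join the spliceosome with PRPF38A, none was called at 24 h, and 1 of them, ZMAT2, was called lower at 96 h. Of 14 genes of the PRP19 complex and its partners, 2 rose at 24 h, and 2 rose and 2 fell at 96 h, with XAB2 at 0.35 ± 0.05. Among 10 helicase and second-step genes 2 rose at 24 h, and 4 rose and 1 fell at 96 h. In the SMN complex, whose founding protein has a Tudor domain like that of SMNDC1, 1 of 8 tested genes rose at 24 h, and 1 rose and 3 fell at 96 h. SMN1 and SMN2, the genes of that founding protein, had 0 CPM in every group and were not tested. Absent transcripts and reads left uncounted give the same 0, and which of them applied was not tested. The medians at 96 h were -0.01 for the SMN complex and -0.215 for the PRMT5 complex. GEMIN5 fell by 0.39 ± 0.07 and GEMIN4 by 0.28 ± 0.05. The PRMT5 partners WDR77 and CLNS1A fell at 96 h, by 0.37 ± 0.06 and by 0.41 ± 0.07 (adjusted p = 0.0026 and 0.00384 in edgeR's test), among 4 tested genes of that complex, and RIOK1 had risen by 0.11 ± 0.03 at 24 h. Of the 29 genes of these lists that were named by rule and called at 96 h, 14 lost the call without at least 1 library (adjusted p from 0.0507 to 0.122). These were PPIH, U2AF2, RBM22, DHX16, PRPF19, SNRPC, SF3B3, ZMAT2, BUD31, PPIE, SLU7, TFIP11, DHX38 and GEMIN2. Each library of 96 h other than GSK591 replicate 2 ended at least 1 of those calls. At 24 h 4 of 16 such calls were lost that way, in XAB2, RBM22, DHX16 and DDX20 (adjusted p from 0.052 to 0.221).

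**Figure D5:**
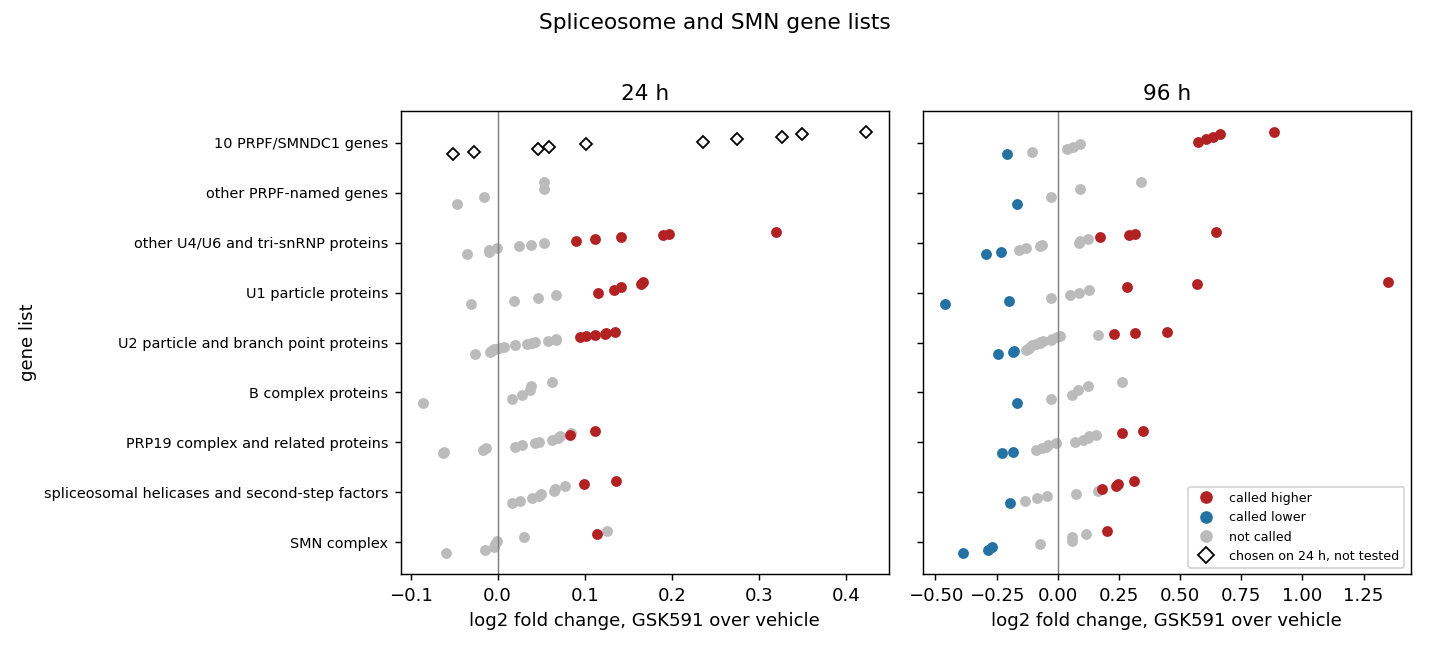
Log2 fold change of GSK591 over vehicle for each tested gene (points) of the 10 members and 8 other gene lists (rows), at 24 h (left) and 96 h (right), coloured by whether edgeR called it higher, lower or not at all. The members' values at 24 h chose them and are drawn as open diamonds. At 96 h 5 members lie between 0.57 and 0.89, and LUC7L of the U1 list, at 1.35, is the one point of the 7 spliceosome lists beyond PRPF3.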

How the data were processed

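Raw counts per gene symbol were deposited by the authors in 1 table a time, with 1 column per sample. The submitters' processing notes name STAR, HTSeq and edgeR and the builds hg19 and GRCh37. Versions, annotation, strand and filters: not given in the sources used here. Further deposited tables hold the authors' log2 fold changes (GSK591 over vehicle), mean log2 CPM, p-values and FDR, per the file headers. Every count column carried the name of 1 sample.

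The 6 samples of a time were fitted together. After filterByExpr and TMM scaling, edgeR's two-sided quasi-likelihood test was used (edgeR 4.0.16 under R 4.3.3), p-values were adjusted by Benjamini-Hochberg over all tested genes, and the threshold was 0.05. A standard error is the log2 fold change over the square root of F, without its sign. CPM use TMM factors over all 12 libraries. Likeness used log2 CPM with a prior count of 2. The fit was tested on simulated counts. Alternatives were library size alone, DESeq2 size factors, no filter, at least 5 CPM in 3 samples, DESeq2 1.42.0, all 12 samples in 1 fit, a replicate block, leaving out each library or both numbered 2, and thinning of the deep vehicle library.

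Members and lists were chosen with earlier results of these data known. Genes outside the members were named by a rule, namely PRMT5 and WDR77, the 2 highest and 2 lowest called genes of each list at each time, the 3 genes most like each member and its neighbours, and not all of them are given. ORC1 and other neighbours come from RefSeq gene order (GRCh38.p14), used for order and distance only, and PRPF4B is PRP4K there. Replicates of a group differed by more than sampling noise in all 12 pairs (chi-square per degree of freedom of 2.2 or more), so none were counted as 1 library. The libraries numbered 2 at 96 h differed most and were kept, with the fit without both as an alternative.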

Additional observations from a re-analysis of the deposited data

Results flagged for a closer look

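SNRPA, the U1 A protein gene, and GEMIN4, of the SMN complex, had all treated values above all vehicle values at 24 h and below them at 96 h. The log2 fold changes of SNRPA were -0.46 at 96 h and 0.019 at 24 h, and those of GEMIN4 were -0.28 at 96 h and 0.030 at 24 h. The difference between the times was not tested, and neither gene was called at 24 h. SF3B2 (-0.09 at 96 h and 0.034 at 24 h) and SF3B4 (-0.12 at 96 h and 0.058 at 24 h), of the U2 particle, crossed over in the same way but were called at neither time. Together with SNRPA and GEMIN4 they were 4 of 98 genes of the lists and members tested at both times, 4.08%, beside 196 of all 13091 such genes, 1.5%. None of the 10 PRPF and SMNDC1 genes crossed over in this way.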

How the results depend on the processing

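The rises of PRPF3, PRPF38B, PRPF39, PRPF4B and SMNDC1 and the fall of PRPF38A at 96 h held under the 15 alternatives run. Their log2 fold changes lay between 0.85 and 0.92 for PRPF3, 0.54 and 0.58 for PRPF38B, 0.60 and 0.67 for PRPF39, 0.57 and 0.63 for PRPF4B, 0.63 and 0.73 for SMNDC1, and -0.24 and -0.18 for PRPF38A. Counts of calls depended more on the setting, and the cause was not tested. In a joint fit of all 12 samples, which brings the spread of 96 h to 24 h, 29 genes were called at 24 h (15 higher, 14 lower), 0 in each of the U4/U6, U1, U2, PRP19, helicase, SMN and PRMT5 lists, and 0 higher of the 7 spliceosome lists. At 96 h that fit called 2 members lower, 2 other PRPF-named genes, 11 of the U2 list, 2 of the B complex list and 19 lower of the 7 lists. With library size alone, 563 genes were called higher at 24 h, 0 of the PRP19 list, 0 of the SMN list and 2 of the PRMT5 list, and PRPF8 was at 0.04. DESeq2 called 622 genes lower and 1 of the PRP19 list at 24 h, and 2 other PRPF-named genes and 2 of the B complex list at 96 h. DESeq2 size factors gave 2 of the SMN list at 24 h and 2 other PRPF-named genes at 96 h, and no filter gave 2 of the SMN list at 24 h. Without both libraries numbered 2, 8201 genes were called at 96 h (4102 lower), with 2 members lower, 2 other PRPF-named genes, 10 of the U4/U6 list, 4 of the B complex list, 9 of the PRP19 list, 8 of the helicase list and 31 higher of the 7 lists, and at 24 h 0 of the PRP19 list and 1 of the helicase list. Replicate numbers were not taken as pairs in the main fit. The r of same-numbered deviations was 0.0215 to 0.131 at 24 h and 0.0128 to 0.287 at 96 h. Not every sample correlated best with its own number, but the libraries numbered 2 did at both times. GSK591 replicate 2 had r of 0.131 to vehicle replicate 2 at 24 h, against -0.0679 and -0.0669 to the other vehicle libraries. At 96 h these values were 0.248, -0.194 and -0.175. Whether samples of 1 number share an effect was not tested. With the replicate block 2811 genes were called at 24 h and 6293 at 96 h, with 2 of the SMN list at 24 h, and 2 other PRPF-named genes and 2 of the B complex list at 96 h. Thinned to the depth of the others, vehicle replicate 1 at 96 h gave 5261 calls.

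Leaving out 1 library gave 980 to 2208 called genes at 24 h (469 to 1118 higher, 508 to 1090 lower), with 1068 without vehicle replicate 2, 980 without GSK591 replicate 1 and 1041 without GSK591 replicate 3. At 96 h it gave 3438 to 7485 (1794 to 3656 higher, 1644 to 3829 lower), with 3507 without vehicle replicate 2 and 3438 without GSK591 replicate 1. Members called lower at 96 h then numbered 1 to 2. In the lists at 24 h the calls ran from 6 to 7 for U4/U6, 4 to 5 for U1, 5 to 6 for U2, 0 to 2 for PRP19, 1 to 2 for helicases and 0 to 1 for SMN, and 17 to 21 genes of the 7 lists were higher. At 96 h they ran from 0 to 1 for other PRPF-named genes, 4 to 8 for U4/U6, 4 to 5 for U1, 3 to 7 for U2, 0 to 4 for the B complex, 1 to 7 for PRP19, 0 to 6 for helicases and 2 to 5 for SMN, with 8 to 25 higher and 4 to 13 lower in the 7 lists.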
